A study of Mus musculus with 6 samples.

Results

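The BCL-2 family was followed through 10 genes that set whether the mitochondrial route of cell death opens. They were the pro-survival genes Bcl2, Bcl2l1 and Mcl1, the BH3-only genes Bcl2l11, Bbc3, Pmaip1, Bid and Bad, and the effector genes Bax and Bak1. The genes were chosen by name, and each was read from the array row whose single gene symbol is that of the member. Of the 10 members, 9 had such a row, exactly 1 row each, among the 19937 genes of the deposited table. Bax was not analysed here. All 9 lay above the filter on low values and were among the 15037 genes tested.

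In this pathway the proteins BCL-2, BCL-XL (from Bcl2l1) and MCL-1 hold the death-promoting members in check at the outer mitochondrial membrane. BH3-only proteins such as BIM (from Bcl2l11), PUMA (Bbc3), NOXA (Pmaip1), BID and BAD carry stress signals and neutralise the pro-survival proteins or activate BAX and BAK, which then form pores that release cytochrome c. In mouse regulatory T cells (Tregs), the Foxp3-dependent CD4+ T cells that restrain immune responses, MCL-1 is needed for survival and BIM limits cell number, and interleukin-2 and T cell receptor (TCR) signals feed into both sides. Much of the control of these proteins lies in cleavage, phosphorylation and turnover, which an array of transcripts does not measure.

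T cells of wild-type mice were transferred into recipients that lacked the CD3ε chain in both groups, and the CD4+ TCRβ+ CD25+ cells were sorted after 5 days, with lymph nodes and spleen as the tissue. The MHC II-deficient group (3 arrays) came from recipients that lacked both CD3ε and MHC class II, the molecules that present peptide to the TCR of CD4+ cells. The MHC II-competent group (3 arrays) came from recipients that lacked CD3ε alone. The labels give the strain as C57BL/6 and the age as 6 to 8 weeks for both groups, call the replicates biological and number them 1 to 3, and do not say whether a replicate is 1 recipient or a pool. The p-values therefore measure the spread between these preparations only. CD3ε-deficient hosts have no T cells of their own but keep B cells, NK cells and myeloid cells. The comparison asks whether transcripts of the survival machinery differ in CD25+ cells after 5 days in hosts without MHC class II.

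The deposited values are log2 expression values with array medians between 6.11 and 6.25. Foxp3 averaged 9.77 ± 0.09 in the MHC II-deficient and 9.82 ± 0.05 in the MHC II-competent arrays (SD, n = 3 each), and all 5 Treg markers and 6 of 7 CD4 T cell markers had a row and passed the filter. None of these 11 genes was called, and all 11 differences lay below 0 (7 of 11 under quantile normalization), with medians of -0.27 for the Treg and -0.11 for the CD4 T cell markers. Ctla4 (log2 difference -0.33), Ikzf2 (-0.29) and Il2ra (-0.27), the genes of CTLA-4, Helios and CD25, had groups that did not overlap and adjusted p = 0.17, 0.20 and 0.22. The summed log2 level of the Treg markers ran from 53.3 to 54.1 in the deficient and from 54.0 to 55.3 in the competent arrays, and that of the CD4 T cell markers from 67.1 to 67.5 and from 67.6 to 68.4. Of 17 myeloid markers, 16 passed the filter and 15 of these had a positive difference, with a median of 0.90 on the log2 scale. Their summed log2 level ran from 109.5 to 123.0 in the MHC II-deficient arrays and from 96.0 to 109.9 in the MHC II-competent arrays. The macrophage gene Adgre1 was the 1 of the 16 to pass the test (log2 difference 1.39, SE 0.29, adjusted p = 0.035), and 0 of the 16 passed under quantile normalization or median centring. In either direction, 14 of the 16 had an unadjusted limma p under 0.05, where 18.9% of all tested genes had such a p. The 1 marker with a negative difference was Itgam (-0.43, SE 0.13, adjusted p = 0.12), whose groups did not overlap. CD8 T and NK cell markers, of which 4 of 6 passed the filter, averaged 7.56 to 7.68 and 7.39 to 7.48 in the deficient and competent arrays. The part of any of these marker shifts in the values below was not tested. In RNA of a whole sort, fewer cells of a type and less RNA per cell cannot be told apart.

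No BCL-2 family member passed the test. With limma's moderated test and Benjamini-Hochberg adjustment over all 15037 genes, 0 of 9 members were called at an adjusted p under 0.05, while 507 genes (3.37%) were called in all. Of these, 201 (1.34%) had a positive and 306 (2.03%) a negative difference, or 230 and 230 under quantile normalization. At an unadjusted p under 0.05 there were 2 members, Bcl2l1 and Bad, both lower in the MHC II-deficient group, where 18.9% of all tested genes had such a p. The 2 groups of arrays did not overlap for 3 of the 9 members (Bcl2l1, Bad and Bbc3), against 24.3% of all tested genes. Both shares are of few genes, and neither is a result about the family.

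**Figure D1:**
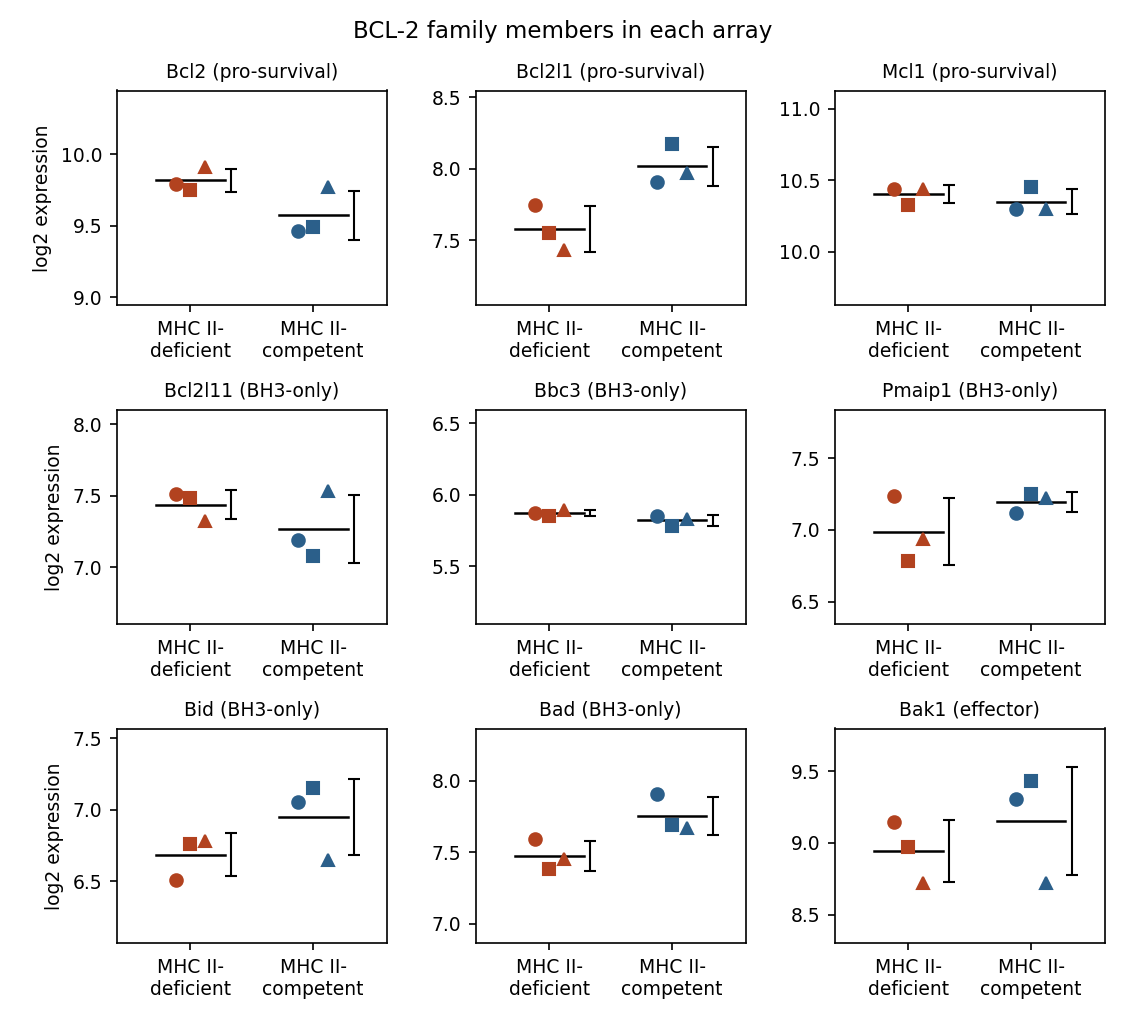
Log2 expression of the 9 BCL-2 family members with a row, 1 panel per gene, with the MHC II-deficient arrays at the left and the MHC II-competent arrays at the right of each panel. Circles, squares and triangles are replicates 1, 2 and 3, horizontal lines are group means and bars at their side are SDs (n = 3). Each panel spans the same number of log2 units around the mean of its gene. The groups do not overlap for Bcl2l1, Bad and, narrowly, Bbc3, and competent replicate 3 lies apart from the other competent arrays for Bcl2, Bcl2l11, Bid and Bak1.

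Among the pro-survival genes, Bcl2 and Bcl2l1 lay in opposite directions and Mcl1 near 0. Bcl2l1, which encodes BCL-XL, stood at 7.75, 7.55 and 7.43 in the MHC II-deficient arrays and at 7.91, 8.17 and 7.97 in the MHC II-competent arrays. Every deficient array was below every competent array. The log2 difference was -0.44 (SE 0.12, 95% interval -0.70 to -0.18), a level 0.738-fold that of the competent group. With an adjusted p = 0.078 it was the member nearest to the threshold and did not pass it. Over 13 alternative settings the difference stayed between -0.53 and -0.36 and the adjusted p between 0.067 and 0.22.

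Bcl2 stood at 9.79, 9.75 and 9.91 in the MHC II-deficient arrays and at 9.46, 9.49 and 9.77 in the MHC II-competent arrays. Competent replicate 3 reached into the range of the deficient arrays. The log2 difference was 0.24 (SE 0.11, 95% interval -0.01 to 0.50, adjusted p = 0.28), and the interval of the ratio ran from 0.993 to 1.41. Mcl1, which encodes the short-lived protein MCL-1, stood at 10.44, 10.33 and 10.44 in the deficient and at 10.30, 10.45 and 10.30 in the competent arrays. Its groups overlapped, and its log2 difference was 0.06 (SE 0.10, adjusted p = 0.80). The 95% interval of the Mcl1 ratio, before adjustment, ran from 0.897 to 1.21.

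Because Bcl2 and Bcl2l1 encode proteins with overlapping duties, their difference within each array was also described. Log2 Bcl2 minus log2 Bcl2l1 was 2.04, 2.20 and 2.48 in the MHC II-deficient arrays and 1.55, 1.32 and 1.80 in the MHC II-competent arrays. The groups did not overlap, and their means lay 0.68 apart (2.24 ± 0.22 and 1.56 ± 0.24, SD, n = 3 each). The pair was chosen after its values were seen, so no test is given. It joins the members with the highest (0.24) and lowest (-0.44) log2 difference, so the choice itself favours a separation. Bcl2 minus Bcl2l11 (means 2.38 and 2.30) and Bcl2l1 minus Bad (0.10 and 0.26) overlapped between the groups. The values of a pair come from different probes, so they do not show which of its 2 transcripts is more abundant.

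Of the BH3-only genes, 2 had positive and 3 negative differences, and none was called. Bcl2l11, which encodes BIM, stood at 7.51, 7.48 and 7.32 in the MHC II-deficient arrays and at 7.19, 7.08 and 7.53 in the MHC II-competent arrays. Competent replicate 3 was the highest of all 6 arrays, so the groups overlapped (log2 difference 0.17, SE 0.13, 95% interval -0.12 to 0.46, adjusted p = 0.53). Without that array the difference was 0.30 (adjusted p = 0.14), and without competent replicate 2 it was 0.080. Bbc3, the gene of PUMA, stood at 5.87, 5.85 and 5.89 in the deficient and at 5.85, 5.78 and 5.83 in the competent arrays. The groups touched without overlapping. The difference of 0.05 in log2 units (SE 0.09, adjusted p = 0.80) turned its sign under quantile normalization (-0.0065) and median centring (-0.0022).

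Both genes are textbook targets of FOXO factors, so the windows of 250 bases before to 50 bases after their RefSeq start sites (GRCm38.p6) were searched. The motifs, on both strands, were GTAAACA for FOXO, TTCNNNGAA for STAT factors, TGANTCA for AP-1 and GCGTGGGCG or GCGGGGGCG for EGR factors, and none overlaps another in these windows. The searched members had 15 windows, 1 of them of Bax, and no window of Pmaip1 was used. FOXO letters were in 2 of the 15 windows, 1 of Bcl2l11 and 1 of Bbc3, against 3.65% of all 32851 windows. EGR letters were also in 2, the same window of Bcl2l11 and another of Bbc3, against 3.47%, and the STAT and AP-1 letters in 0, against 8.30% and 7.81%. These shares are not matched for base composition. The windows with matches have 71% to 76% GC, and the median over all windows is 52.7%. Windows of 1 gene can overlap, as those of Bbc3 do in part. A match describes letters only. The windows with FOXO letters are shown because these are the members whose windows hold the letters, and that of Bcl2l1 because it is the member nearest to the threshold. Capitals mark FOXO letters (bases 24 to 30 in Bcl2l11, bases 84 to 90 on the opposite strand in Bbc3) and EGR letters (bases 201 to 209 in Bcl2l11), counted from the 5′ end of the window.
Bcl2l11, chr2:128125788-128126087, plus strand: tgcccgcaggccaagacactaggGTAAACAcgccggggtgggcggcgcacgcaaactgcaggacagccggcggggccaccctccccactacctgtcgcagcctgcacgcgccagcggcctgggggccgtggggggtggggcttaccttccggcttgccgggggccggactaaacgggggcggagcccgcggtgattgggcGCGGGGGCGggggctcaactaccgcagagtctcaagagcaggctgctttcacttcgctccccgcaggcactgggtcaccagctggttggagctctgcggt
Bbc3, chr7:16310011-16310310, plus strand: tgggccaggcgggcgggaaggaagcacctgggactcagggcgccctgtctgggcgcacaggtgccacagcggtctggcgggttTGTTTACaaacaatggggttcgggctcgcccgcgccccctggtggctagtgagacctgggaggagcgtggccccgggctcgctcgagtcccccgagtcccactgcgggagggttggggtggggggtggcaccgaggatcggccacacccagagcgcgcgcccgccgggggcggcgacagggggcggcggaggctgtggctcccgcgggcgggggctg
Bcl2l1, chr2:152831679-152831978, minus strand: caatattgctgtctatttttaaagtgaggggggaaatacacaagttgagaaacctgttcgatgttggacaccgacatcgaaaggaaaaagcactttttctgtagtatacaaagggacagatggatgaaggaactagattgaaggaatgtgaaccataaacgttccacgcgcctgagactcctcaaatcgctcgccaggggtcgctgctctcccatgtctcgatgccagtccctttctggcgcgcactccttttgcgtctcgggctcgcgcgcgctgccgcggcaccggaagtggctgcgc
The Bcl2l1 window, the farthest upstream of its 3, holds none of these letters, has a GC content of 52.3% and 22 CpG dinucleotides, and the windows of Bcl2l11 and Bbc3 have 71.0% and 74.7% GC with 27 and 30 CpG dinucleotides.

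The other 3 BH3-only genes had lower means in the MHC II-deficient group. Bad, whose protein binds BCL-2 and BCL-XL when it is not phosphorylated, stood at 7.59, 7.38 and 7.45 in the MHC II-deficient arrays and at 7.91, 7.69 and 7.67 in the MHC II-competent arrays. All 3 deficient arrays were below all 3 competent arrays, with 0.823-fold the competent level (log2 difference -0.28, SE 0.11, 95% interval -0.53 to -0.04, adjusted p = 0.20). Bid, whose protein links death receptors to mitochondria after cleavage by caspase-8, stood at 6.51, 6.76 and 6.78 in the deficient and at 7.05, 7.15 and 6.65 in the competent arrays. Competent replicate 3 lay within the deficient range, and the difference of -0.26 (SE 0.14, adjusted p = 0.36) was -0.41 without that array (adjusted p = 0.084) and -0.16 without competent replicate 2. Pmaip1, a p53-inducible gene whose product NOXA binds mainly MCL-1, stood at 7.24, 6.78 and 6.94 in the deficient and at 7.12, 7.25 and 7.22 in the competent arrays. Deficient replicate 1 lay among the competent arrays, and the difference of -0.21 (SE 0.13, adjusted p = 0.42) ranged from -0.34 without that array to -0.10 without deficient replicate 2.

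Bak1, the 1 effector gene among the members with a row, encodes a pore-forming protein of the outer mitochondrial membrane. It stood at 9.15, 8.97 and 8.72 in the MHC II-deficient arrays and at 9.31, 9.43 and 8.72 in the MHC II-competent arrays. The replicates of each group were farther apart than the group means. The difference was -0.20 (SE 0.19, 95% interval -0.62 to 0.21, adjusted p = 0.61), the widest interval of the 9 members, and lay between -0.42 without competent replicate 3 and -0.065 without competent replicate 2.

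**Figure D2:**
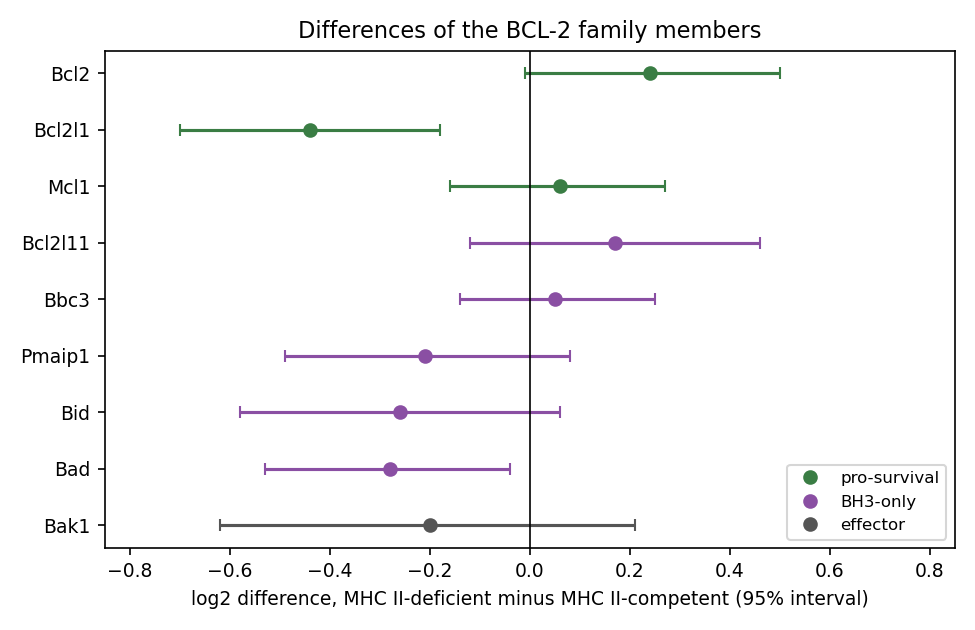
Log2 difference of each member, MHC II-deficient minus MHC II-competent, with its 95% interval from limma, coloured by role. The intervals of Bcl2l1 (-0.70 to -0.18) and Bad (-0.53 to -0.04) lie below 0 before adjustment for the 15037 genes tested, and those of the other 7 members include 0.

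Set against each other, the 3 pro-survival members had a median log2 difference of 0.06 and the 6 pro-death members measured had a median of -0.21, beside 0.02 over all tested genes. Of the pro-survival members 2 lay above 0 and 1 below, and of the pro-death members 2 lay above and 4 below. The mean of the pro-survival minus the mean of the pro-death members was 2.01, 2.01 and 2.08 in the MHC II-deficient arrays and 1.82, 1.97 and 2.08 in the MHC II-competent arrays. These values overlapped, and the group means (2.03 ± 0.04 and 1.96 ± 0.13, SD, n = 3 each) lay 0.08 apart. Without Bcl2l1 the same quantity was 2.80, 2.84 and 2.99 in the deficient and 2.48, 2.57 and 2.77 in the competent arrays, and the groups no longer overlapped. Bcl2l1 was the 1 pro-survival member below 0, so leaving it out had to raise the difference of the group means, here to 0.27. No other member was left out for comparison. Both forms were described after the members' values were seen, and no test is given for either.

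**Figure D3:**
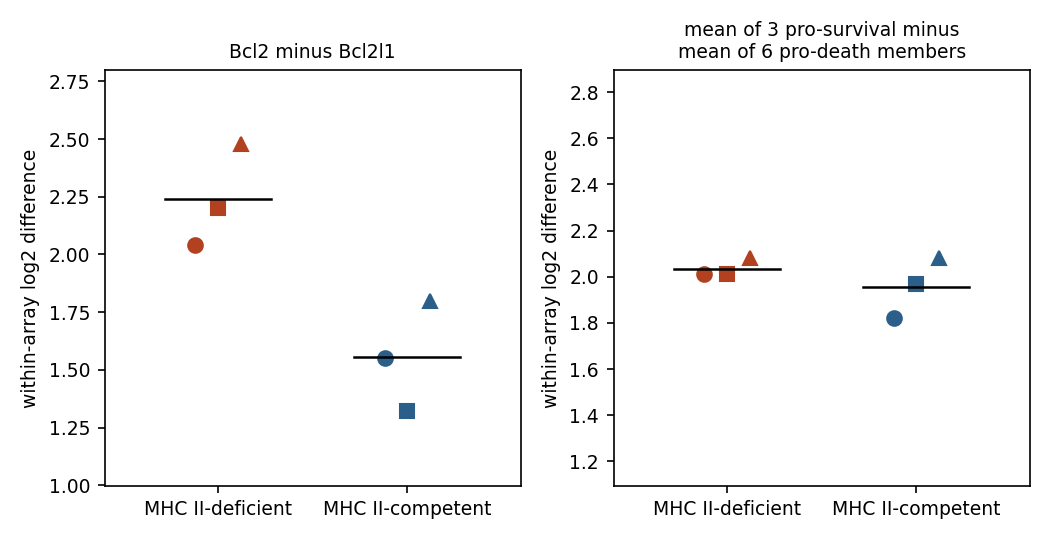
Differences of log2 values within each array, with MHC II-deficient arrays at the left of each panel, MHC II-competent arrays at the right, lines for group means, and circles, squares and triangles for replicates 1, 2 and 3. Bcl2 minus Bcl2l1 separates the groups (means 2.24 and 1.56), and the mean of the pro-survival minus that of the pro-death members does not (2.03 and 1.96). Bcl2 and Bcl2l1 were paired after their values were seen. They are the members with the highest and lowest difference, so their separation is not a test.

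The other genes of the apoptosis pathway were read from 6 lists with 98 different genes, of which 87 had a row and 85 passed the filter. Past the threshold, 2 of the 85 rose and 2 fell after transfer without MHC class II, beside the 1.34% and 2.03% of all tested genes given above, and 22 had an unadjusted p under 0.05, as 18.9% of all tested genes had. The median difference over the 85 genes was -0.01. The count is of few genes and varied from 1 to 7 with 1 array left out.

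Of 12 tested relatives in the BCL-2 family, 1 was called lower in the MHC II-deficient group and 0 higher. Bcl2a1c, 1 of the mouse copies of the A1 gene, stood at 7.68, 7.73 and 7.71 in the MHC II-deficient arrays and at 8.20, 8.31 and 8.11 in the MHC II-competent arrays. The groups were well apart (log2 difference -0.50, SE 0.09, adjusted p = 0.024). The A1 copies are near-identical, so the row may also bind transcripts of the others, Bcl2a1a, Bcl2a1b and Bcl2a1d. Their shared rows carry several symbols and were not analysed here. Whether Bcl2a1c itself yields a pro-survival protein was not examined. The call ended without any single array except competent replicate 3, with an adjusted p of up to 0.10 and a difference between -0.55 and -0.45. Bmf, a BH3-only gene named after its values were seen, did not pass (log2 difference 0.17, SE 0.10, adjusted p = 0.42).

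Of 13 tested genes on the list of death receptors, their ligands and adaptors, 1 rose and 1 fell, and neither encodes a receptor with a death domain. The death receptor genes Fas, Tnfrsf1a and Tnfrsf10b, named after their values were seen, had log2 differences of 0.10, 0.11 and -0.19 and were not called (adjusted p = 0.79, 0.82 and 0.56). Fasl, which encodes the ligand of the death receptor FAS, stood at 6.21, 6.29 and 6.26 in the MHC II-deficient arrays and at 5.53, 5.60 and 5.65 in the MHC II-competent arrays. It stood at 1.58-fold the competent level (log2 difference 0.66, SE 0.09, adjusted p = 0.0066). Fasl kept its call with each array left out (adjusted p at most 0.035), although its competent level lies near the filter value of 5.205. NK and CD8 T cells also express Fasl. The 4 CD8 T and NK cell markers above the filter (Cd8a, Cd8b1, Eomes and Gzma) averaged 7.56 to 7.68 in the deficient and 7.39 to 7.48 in the competent arrays. Of these 4 markers 0 were called, 3 had a positive difference and Gzma did not (-0.03). Ncr1 and Klrb1c, also on that list, lay below the filter. The part of such cells in the Fasl value was not tested. 

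Tnfrsf1b, which encodes TNF receptor 2, stood at 8.09, 7.94 and 8.30 in the MHC II-deficient arrays and at 8.72, 8.93 and 8.93 in the MHC II-competent arrays. It stood at 0.594-fold the competent level (log2 difference -0.75, SE 0.12, adjusted p = 0.012). TNF receptor 2 has no death domain and supports Treg expansion in mice. The call ended without competent replicate 2 (adjusted p = 0.066) or deficient replicate 1 (0.060).

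In the list of caspases, apoptosome and inhibitors of apoptosis, 0 of 19 tested genes were called. The smallest p belonged to Diablo, which encodes the mitochondrial protein SMAC, at 8.43, 8.28 and 8.51 in the MHC II-deficient and 8.76, 8.74 and 8.91 in the MHC II-competent arrays (log2 difference -0.39, SE 0.10, adjusted p = 0.075). Of p53 and its targets 0 of 13 were called, and Btg2, an antiproliferative gene, came nearest (log2 difference 0.40, SE 0.10, adjusted p = 0.076). Btg2 passed under 3 of 13 alternatives, quantile normalization (adjusted p = 0.029), the trended robust prior (0.046) and array weights (0.049). It did not pass under the rest, with an adjusted p of 0.16 under median centring and up to 0.24 with 1 array left out. Of the proteins that act on BCL-2 family members 0 of 13 were called. There Vdac2, which encodes an outer membrane channel protein that binds BAK, had a log2 difference of -0.33 (SE 0.10, adjusted p = 0.12).

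Among the cytokine and FOXO inputs, 1 of 15 tested genes rose and 0 fell. Il15ra, which encodes the chain that binds interleukin-15, stood at 8.08, 8.13 and 8.35 in the MHC II-deficient arrays and at 7.49, 7.69 and 7.74 in the MHC II-competent arrays (log2 difference 0.55, SE 0.11, adjusted p = 0.034). That call ended with any 1 array left out except competent replicate 3, and under median centring (adjusted p = 0.063). Macrophages express Il15ra too, and the 16 myeloid markers had a median difference of 0.90 with summed levels that did not separate the groups fully (109.5 to 123.0 deficient, 96.0 to 109.9 competent). Their part in the Il15ra value was not tested. Foxo3 and Foxo1, the transcription factor genes named after their values were seen for the BIM and PUMA windows, had log2 differences of 0.08 (SE 0.11, adjusted p = 0.75) and -0.12 (SE 0.11, adjusted p = 0.60). Il7r, the interleukin-7 receptor gene, whose signals sustain Bcl2 in T cells, was named likewise (log2 difference 0.43, SE 0.12, adjusted p = 0.085). Il7r passed under 2 of 13 alternatives, quantile normalization (adjusted p = 0.042) and the trended robust prior (0.038). It did not pass under the rest, with an adjusted p of 0.15 under median centring and up to 0.26 with 1 array left out.

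**Figure D4:**
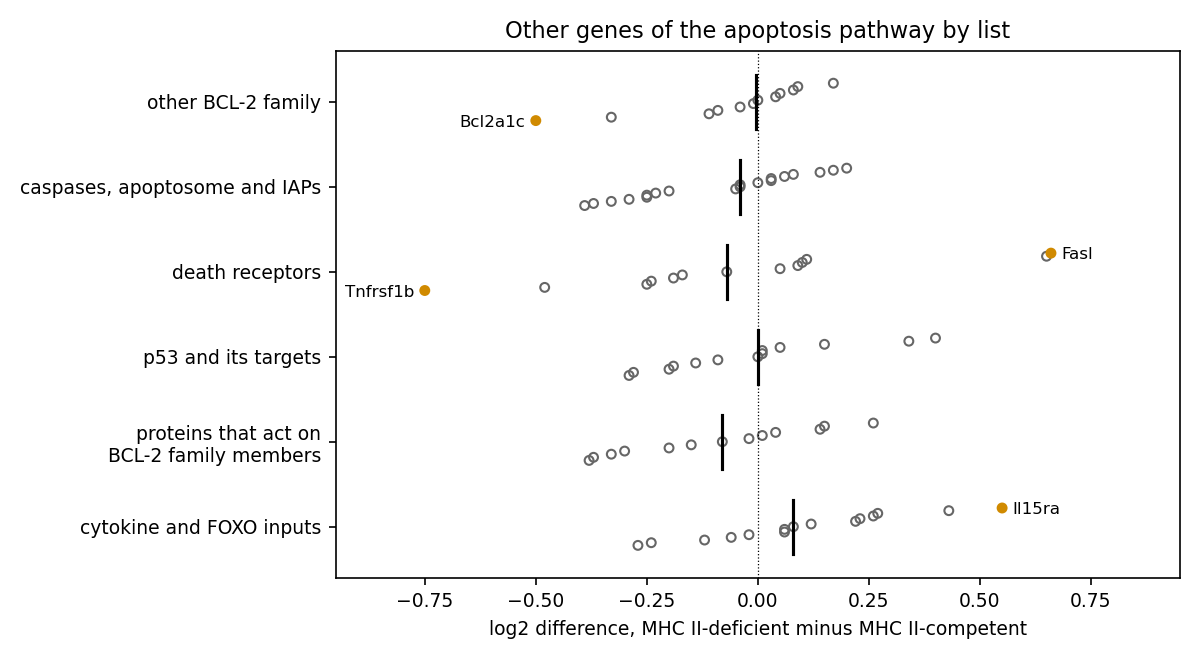
Log2 differences, MHC II-deficient minus MHC II-competent, of the tested genes of 6 apoptosis lists, 1 circle per gene with vertical lines at list medians. Filled circles with names are the 4 genes past limma's threshold, Bcl2a1c and Tnfrsf1b lower and Fasl and Il15ra higher, and the medians lie between -0.08 and 0.08.

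The genes with profiles most like those of the 3 members with the smallest p were found by the Euclidean distance between row-centred log2 values over the 6 arrays. For Bcl2l1 they were Pola1 (distance 0.169), which encodes the catalytic subunit of DNA polymerase α, Gtf2f2 (0.176), a subunit of the general transcription factor TFIIF, and Hsdl2 (0.177). Pola1 passed the test (log2 difference -0.47, SE 0.10, adjusted p = 0.040) and Gtf2f2 (-0.45, adjusted p = 0.051) and Hsdl2 (-0.44, adjusted p = 0.085) did not. The nearest to Bad were Tex33 (0.0876), Mad2l2 (0.0979) and Nf2 (0.108), and the nearest to Bcl2 were Frmd7 (0.0892), Olfr796 (0.0912) and Dupd1 (0.101), none of which passed. These genes were picked because their profiles resemble that of a member, group difference included. Their differences and p-values are thus no separate support for the members. Whether any of them shares its control with a member was not tested.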

How the data were processed

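The authors deposited 1 log2 expression value per row and array for 28101 rows and 6 Affymetrix arrays, each hybridised with labelled cDNA from 100 ng of total RNA per the labels' protocols. Per the submitters' processing notes the values were made with affy and RMA, and versions, annotation and genome build are not given in the sources used here. The log base was taken as 2.

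Row names came from the platform annotation, and Entrez identifiers were used to bring symbols up to those of RefSeq's GRCm38.p6 table. Of the rows, 21640 had 1 symbol, 1321 several and 5140 none, and the last 2 kinds were not used. Where a gene had several rows, that of the highest mean was kept, and 4900 genes with a mean under 5.205 (25th percentile of the named rows) were left out. limma 3.58.1 in R 4.3.3 (lmFit, eBayes, two-sided, 9.40 total degrees of freedom) was run on all 15037 genes, with Benjamini-Hochberg adjustment, after a test on simulated data. That test recovered 12 of 50 genes changed by 0.5 log2 units and 45 of 50 changed by 1, with 8 false calls. The simulated noise was normal and independent between genes, so the share recovered in the real values may differ. The members' differences, from -0.44 to 0.24, are all smaller than 0.5. The absence of called members therefore does not show that they are unchanged. An exact permutation test of 3 against 3 arrays cannot go below p = 0.10. The number of arrays limits the precision. Promoter windows are RefSeq's.

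Members and lists were chosen with earlier results of these data known. Genes named were all members, the called genes of each list, otherwise its gene with the smallest p, 3 nearest profiles for each of 3 members, and Foxp3 and Adgre1 as checks. Other genes are said to be named after their values were seen. The alternatives were other filters, quantile normalization, median centring, a trended robust prior, array weights, the replicate number as a block, and each array left out.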

Additional observations from a re-analysis of the deposited data

How the results depend on the processing

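The count of 0 called BCL-2 family members held under all 13 alternatives, and every member but Bbc3 kept the sign of its difference. Bbc3 turned to -0.0065 under quantile normalization and to -0.0022 under median centring, and it was not tested with the filter at the median. The count of other apoptosis genes past the threshold (4) was 7 with the trended robust prior and ranged from 1 to 7 with 1 array left out. It was 1 without competent replicate 2 or deficient replicate 1 and 7 without competent replicate 3. Over all genes the count of 507 ranged from 159 (without deficient replicate 1) to 708 (without competent replicate 3) with 1 array left out. The other settings gave 424 to 736. The replicate numbers do not show a pairing: deviations of same-numbered arrays correlated at -0.02, -0.14 and 0.07, and not every array correlated best with its own number. With the replicate block 564 genes and 0 members passed, and Bcl2l1 had an adjusted p of 0.096. The difference of Fas (0.098) ranged from -0.016 to 0.23 with 1 array left out. No member has a second row, so no other row could be tried. The causes of these shifts were not tested. With 3 arrays per group the SE of the members lay between 0.09 and 0.19.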
